A study of Mus musculus with 15 samples.

Results

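The interaction of carbon tetrachloride and ethanol in the mouse kidney was measured as the part of the response to both agents that is left after the separate responses are added. It used 14 of the 15 kidney samples of the series, chosen because the count table names them, in 4 groups of male C57BL/6 mice, and 16105 genes with enough counts to test. The remaining sample, from olive oil, was not analysed here. The olive oil group (3 mice) was injected intraperitoneally with olive oil, the vehicle, for 6 weeks. The CCl4 group (4 mice) received carbon tetrachloride (CCl4) by the same route for 6 weeks, and 2 of its mice then had 4 more weeks with the dose lowered. Mice of the EtOH group (4 mice) had 6 weeks of olive oil and then 4 weeks of ethanol. The CCl4+EtOH group (3 mice) had 6 weeks of CCl4 and then 4 weeks of ethanol, and because its titles repeat CCl4 before ethanol, the labels do not tell whether CCl4 went on during those weeks. The route of ethanol and the age of the mice are not given. Ethanol comes with 4 more weeks of age than olive oil, and these cannot be told apart in any comparison of EtOH with olive oil. The same holds in part for CCl4+EtOH against CCl4, because the CCl4 mice without the 4 more weeks ended at 6 weeks. The series title describes the model as kidney injury that accompanies alcoholic liver fibrosis. The contrast (CCl4+EtOH minus EtOH) minus (CCl4 minus olive oil) asks, gene by gene, whether CCl4 changed the kidney differently with ethanol than without it. Age and CCl4 schedule do not cancel in it, because 2 of the 4 CCl4 mice had 4 more weeks at a lowered dose and no olive oil mouse had them. These cannot be fully told apart from ethanol in the interaction.

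CCl4 is a chlorinated solvent that is converted to reactive radicals by cytochromes P450, chiefly Cyp2e1, an enzyme that also oxidises ethanol. The proximal tubule reabsorbs most of the filtered solutes, lives on fatty acid oxidation and is the main site of toxic injury in the kidney. Injured tubule cells are known to lose their transport and metabolic genes, to produce the surface protein Havcr1 (Kim-1) and the secreted proteins Lcn2 and Spp1, to re-enter the cell cycle, and to be met by macrophages.

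Libraries held 16.4 to 23.6 M counts, and levels are given as CPM, counts scaled to library size,, in replicate order within a group. Markers of proximal tubule, loop and distal tubule, collecting duct and podocytes were present in every library, with none of their tested genes at 0. EtOH replicates 1 to 3 also held transcripts of the adrenal gland: the 12 tested genes of an adrenal cortex list summed to between 937 and 1397 CPM there, against 98.1 CPM in EtOH replicate 4 and between 67.8 and 119.7 CPM in the other groups. The steroid hydroxylase Cyp21a1, the marker that defines this tissue, lay between 180.3 and 241 CPM in those 3 libraries and at 0 in EtOH replicate 4. CCl4 replicate 3 was somewhat higher in this list than the remaining libraries. Its mean log2 CPM was 2.12 with 1 gene at 0, against 0.86 to 1.08 with 2 to 4 genes at 0. CCl4+EtOH replicate 3 lay between its 2 companions and the rest of the libraries in most genes described below. The labels describe separate mice, so that p-values rest on the variation among them.

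In edgeR's quasi-likelihood test, 884 of 16105 genes (5.49%) were higher with both agents than the separate changes add up to, and 584 (3.63%) were lower, at an adjusted p under 0.05. A count of 4608 genes had an unadjusted p under 0.05. Over all genes tested the median interaction was 0.0023 on the log2 scale. Of the genes above additivity, 581 exceeded a 2-fold and 216 a 4-fold departure, against 227 and 40 of those below it. The median size was 1.33 above and 0.87 below. Among the genes called, departures upward were thus larger than those downward.

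With CCl4 alone no gene passed the threshold (0 of 16105, 0%) in edgeR, where 640 had an unadjusted p under 0.05. The test uses a spread shared by the 4 groups, into which CCl4+EtOH replicate 3 and both CCl4 schedules enter. The lack of calls therefore does not show that CCl4 alone changed nothing. The called genes differed mainly in the level of the CCl4+EtOH libraries. Of the 884 genes above additivity, 788 were also called higher in CCl4+EtOH than in olive oil, 874 higher than in EtOH and 857 higher than in CCl4. Of the 584 below, 491, 577 and 532 were called lower in those comparisons. These share libraries with the interaction and describe where it lies.

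At a size of 0.5 on the log2 scale, chosen after the values were seen, 594 of the 884 genes (67.2%) changed less than that with either agent alone and more than that with both. In 145 a single agent had moved the gene the other way, in 24 the same way, and in 120 the level with both agents was within 0.5 of olive oil. Below additivity the same counts were 389 (66.6%), 19, 34 and 138. On linear CPM, 884 of 884 and 582 of 584 genes kept the sign of the interaction. The genes were chosen on the log scale from the same values. Where single changes are small and the combined change is larger, both scales tend to give the same sign. This agreement was thus largely set in advance.

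**Figure D1:**
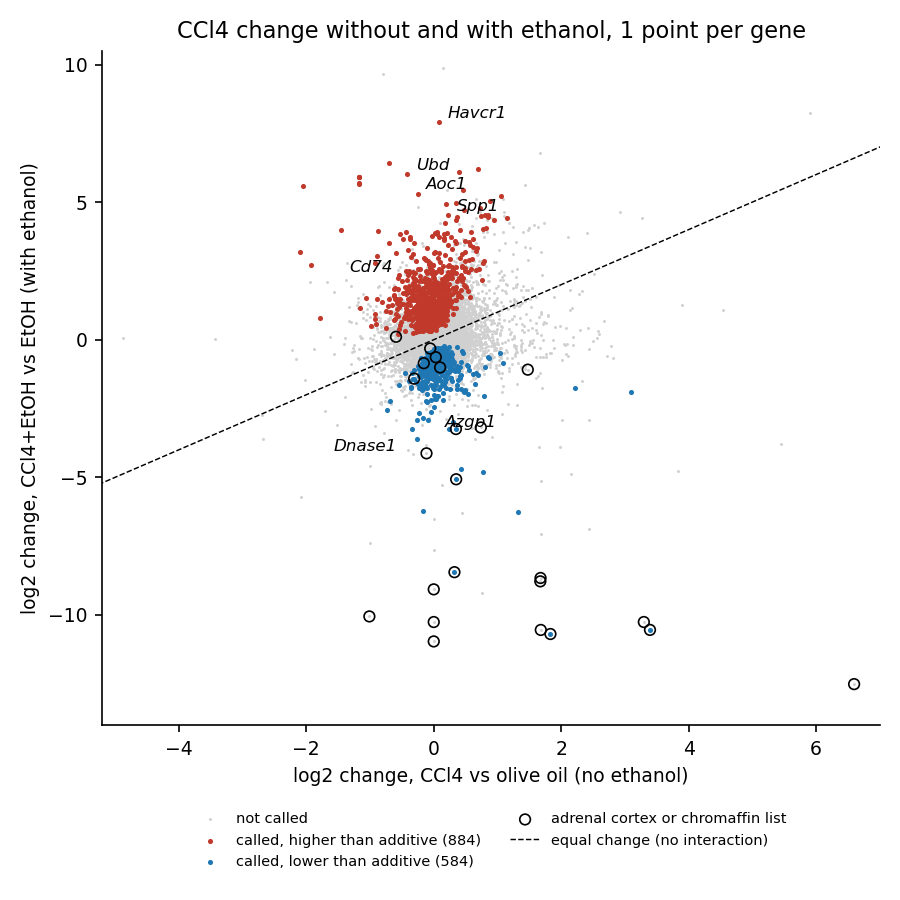
Log2 change with CCl4 without ethanol (x axis, CCl4 minus olive oil) against the change with CCl4 in mice given ethanol (y axis, CCl4+EtOH minus EtOH), 1 point per gene tested. The comparisons share no library. Red (884) and blue (584) points are called above and below additivity, the dashed line marks equal changes, and rings mark adrenal cortex and chromaffin cell genes, several of which lie far below 0 and were high in EtOH replicates 1 to 3.

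The changes with CCl4 in the absence and in the presence of ethanol come from different libraries. Over 14985 genes with at least 1 CPM in a group, they had a Pearson correlation of 0.11 and a Spearman correlation of 0.16, and 56.5% of genes had the same sign. The changes with ethanol, without and with CCl4, had 0.13 and 0.23, with 59.0% of the same sign. These are descriptions across genes, which are not independent. The SD of the CCl4 change across genes was 0.29 without ethanol and 0.84 with it.

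The 3 CCl4+EtOH libraries lay above all 11 others in 667 of the 884 genes (75.5%, against 10.2% of all genes tested) and below all others in 473 of the 584 (81.0%, against 9.73%), although the interaction was called from the same libraries. They did not contribute equally. Over the genes above additivity, CCl4+EtOH replicate 1 had a median log2 level of 1.22 relative to the olive oil mean, replicate 2 1.18 and replicate 3 0.49, with -0.15 to 0.07 in the other 11 libraries. Over the genes below it, the values were -0.95, -0.97 and -0.46, and -0.08 to 0.07 elsewhere. Replicate 3 nevertheless lay above the olive oil mean in 91.0% of the former genes and below it in 92.3% of the latter.

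The number of calls depended on the libraries far more than the sizes did. Without CCl4+EtOH replicate 3 the test called 2377 genes above and 2504 below. Without EtOH replicates 1 to 3, which leaves 1 EtOH library whose variance is taken from the other groups, it called 0 above and 3 below, while 1619 and 1308 had an unadjusted p under 0.05. With the adrenal level of each library as a covariate it called 3 and 3. In both of those fits all 884 genes kept their direction, with a median interaction of 1.33 and 1.34 against 1.33, and the median standard error (SE) grew from 0.30 to 0.43. Below additivity 580 of 582 and 582 of 584 kept theirs, with medians of -0.87 and -0.83 against -0.87. Both sets of genes were chosen in the full fit, and both refits share its CCl4+EtOH, CCl4 and olive oil libraries. Kept directions and sizes were thus largely set in advance and are no independent check. Of the 108 named genes that were called, 4 passed with the covariate and 2 of 107 without those libraries. The lists described next had the same dependence: antigen presentation had 0 calls in either fit, with medians of 1.18 and 1.11 against 1.28, and tubule injury 0, with 1.99 and 1.98 against 1.83. Among single libraries, leaving out olive oil replicate 1 gave 197 and 95 calls, olive oil replicate 2 371 and 168, CCl4+EtOH replicate 1 215 and 125, and CCl4+EtOH replicate 2 197 and 107. Leaving out CCl4 replicates 1, 2 or 4 or EtOH replicates 3 or 4 also changed both counts by more than 1.5 times, to between 480.0 and 564 above and between 282 and 378 below, and leaving out CCl4 replicate 3 or EtOH replicates 1 or 2 changed the count below, to between 355 and 389. With only the CCl4 mice of the longer schedule there were 217 and 120 calls.

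**Figure D2:**
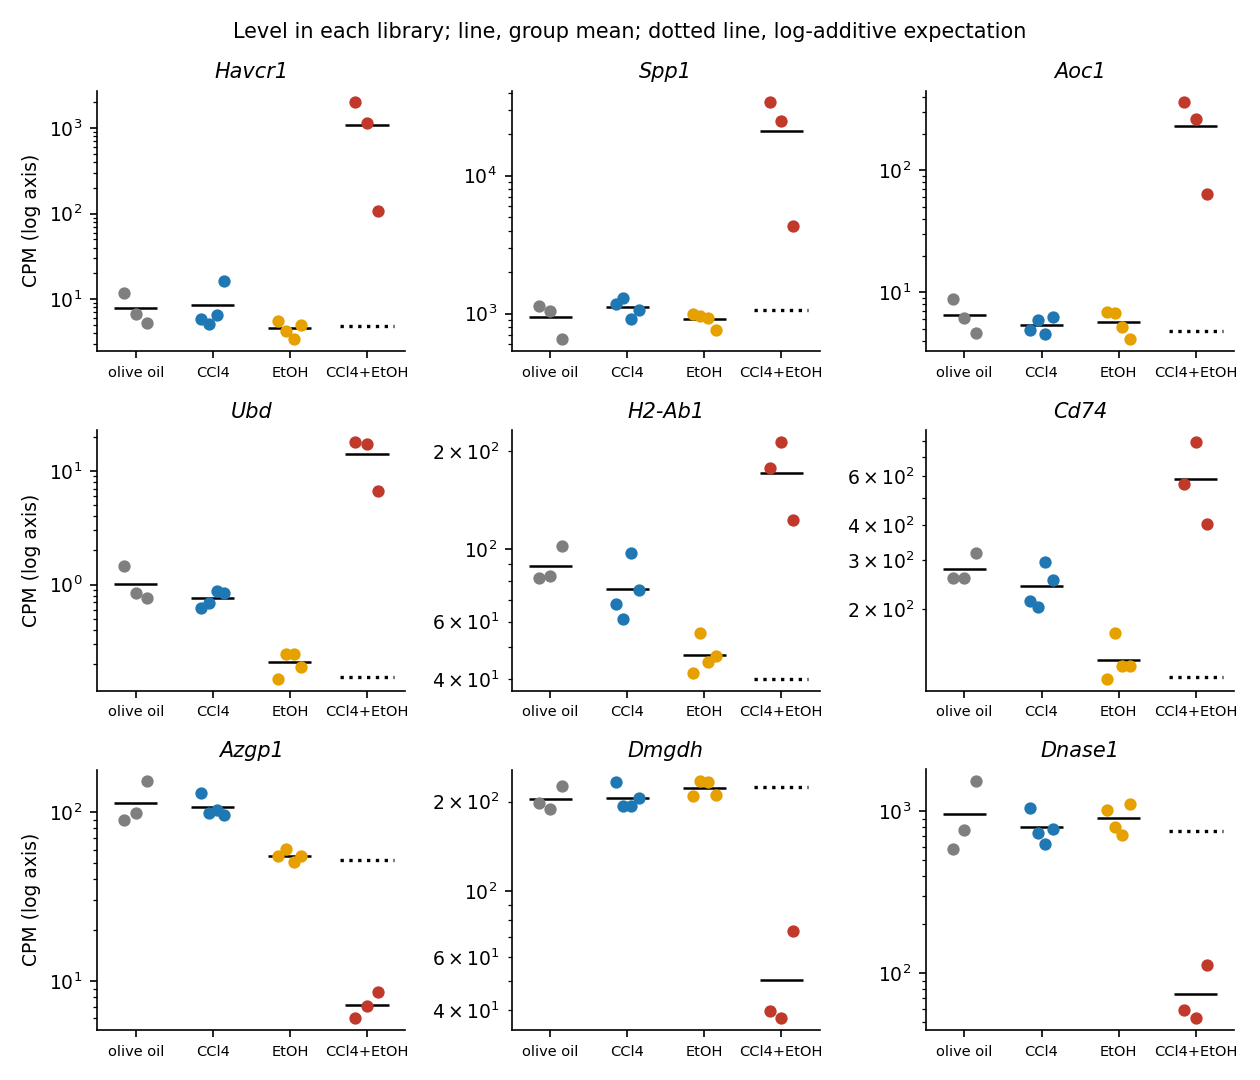
CPM of 9 genes in each library (log axes that differ between panels), with the mean of each group as a solid line and, over CCl4+EtOH, the level expected if log changes added as a dotted line. The 3 CCl4+EtOH points lie above all other libraries in the upper 6 panels and below them in the lower 3, with CCl4+EtOH replicate 3, the rightmost point, nearest to the other groups in all 9 panels.

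Genes of tubule injury were higher than additive. Of 28 tested genes of an injury list, 17 were above additivity and 0 below, and the list's median interaction was 1.83. Havcr1 stood at 11.9, 6.76 and 5.31 CPM in the olive oil libraries, 5.91, 5.08, 6.56 and 16.3 in CCl4, 5.602, 4.25, 3.39 and 5.01 in EtOH and 2000.4, 1151 and 108 in CCl4+EtOH. The lowest CCl4+EtOH library exceeded the highest of the other 11, CCl4 replicate 4. If log changes added, 4.84 CPM would be expected, and the interaction was 7.82 ± 1.07 (SE) on the log2 scale (edgeR adjusted p = 0.00516).

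Spp1, the secreted matrix phosphoprotein osteopontin, stood at 1143, 1049 and 650.2 CPM in olive oil, 1176, 1296, 917 and 1059 in CCl4, 1000.4, 955, 921 and 759 in EtOH and 34038, 24819 and 4338 in CCl4+EtOH. Those 3 libraries lay above all others, with an interaction of 4.3038 ± 0.65 (edgeR adjusted p = 0.00671). Lcn2, an iron-scavenging protein of the injured distal nephron, was at 10.6, 3.67 and 3.85 CPM in olive oil, 5.65, 2.66, 6.97 and 9.55 in CCl4, 11.01, 18.3, 12.9 and 28.8 in EtOH and 405, 349 and 45.03 in CCl4+EtOH, again without overlap. Its interaction was 3.87 ± 0.97 (edgeR adjusted p = 0.0312). Both genes were lowest within the group in replicate 3.

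Cdh6, a cadherin of the developing proximal tubule, had 22.9, 32.4 and 11.3 CPM in CCl4+EtOH against 1.36 to 3.36 in the other libraries, and an interaction of 3.73 ± 0.45 with the smallest adjusted p of the injury list (0.00224, edgeR). Krt20, an epithelial keratin, had 73.2, 56.4 and 8.76 CPM against 0.108 to 1.39, and 5.495 ± 1.51. The tubule progenitor regulator Sox9 (4.06 ± 0.69), the adhesion molecule Vcam1 (3.99 ± 0.58), Cd44 (2.74 ± 0.74) and Clu (2.78 ± 0.54) were also above additivity and were picked after their values were seen. Of 10 keratins tested, 2 were above additivity, Krt20 and Krt7 (0.79 ± 0.19), against 5.49% of all genes tested.

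Among the other genes far above additivity, Aoc1, the diamine oxidase that degrades histamine and putrescine, was at 8.74, 6.14 and 4.61 CPM in olive oil, 4.92, 5.97, 4.55 and 6.26 in CCl4, 6.94, 6.83, 5.15 and 4.12 in EtOH and 361, 265.7 and 63.8 in CCl4+EtOH. No library of the other groups reached the lowest of these, and the interaction was 5.56 ± 0.67 (edgeR adjusted p = 0.00278). Serpina10, a serine protease inhibitor that blocks coagulation factors, went from 0.793 to 2.93 CPM over the other 11 libraries to 182, 128 and 11.3, with an interaction of 7.12 ± 1.14. Sorcs1, a sorting receptor, had 23.5, 36.5 and 3.37 CPM against 0.196 to 2.74, and 5.71 ± 1.19. In CCl4+EtOH replicate 3 Sorcs1 lay close to the highest library of the CCl4 group.

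Proliferation genes were unevenly high among the CCl4+EtOH mice. Of 30 cell cycle genes tested, 13 were above additivity and 0 below, with a median interaction of 2.38. Mki67, a nuclear marker of dividing cells, was at 4.52, 3.36 and 3.96 CPM in olive oil, 4.41, 4.79, 7.38 and 11.9 in CCl4, 2.43, 3.26, 1.77 and 3.49 in EtOH and 133, 47.6 and 10.8 in CCl4+EtOH. CCl4 replicate 4 exceeded CCl4+EtOH replicate 3, so the groups overlapped. The interaction was 3.7046 ± 0.94 (edgeR adjusted p = 0.0326).

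The DNA replication factor Mcm3 did not overlap, at 30.5, 20.3 and 8.94 CPM in CCl4+EtOH against 4.31 to 7.09 elsewhere, and had an interaction of 1.91 ± 0.41. Foxm1, a transcription factor of the mitotic programme, was at 14.98, 7.63 and 2.03 CPM in CCl4+EtOH and at 0.545, 0.9397, 0.932 and 0.951 in EtOH, with 1.36 to 3.16 in CCl4, so that it overlapped. Its interaction was 2.9976 ± 0.71, and that of the mitotic kinase Aurkb 3.68 ± 0.89. Without CCl4+EtOH replicate 3, 28 of the 30 cell cycle genes were called, in the fit that called 2377 above and 2504 below of 16398 genes.

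Of 20 targets of the damage sensor p53, 2 were above additivity, the death receptor Eda2r (1.9987 ± 0.49) and the BH3-only protein Pmaip1 (1.18 ± 0.30), and the list's median was 0.32. Of 19 immediate early genes tested, 4 were above: Klf6 (1.75 ± 0.41), the stress factor Atf3 (2.3026 ± 0.58), Jund (0.62 ± 0.17) and Klf4 (0.94 ± 0.27). Atf3 was at 17.5, 18.3 and 6.26 CPM in CCl4+EtOH and 1.09 to 3.36 elsewhere. Of 19 genes of the endoplasmic reticulum and integrated stress responses, 0 were above additivity and Herpud1 was below (-1.13 ± 0.28). Over all genes tested, 5.49% were above and 3.63% below. Of 10 tested EGF receptor ligands and receptors 0 were called in edgeR, 5 had an unadjusted p under 0.05, and the median was 0.19.

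Antigen presentation was the list called most completely, with 16 of 17 genes above additivity, 0 below and a median interaction of 1.28. The MHC class II genes below were lowest in EtOH and highest in CCl4+EtOH. Cd74, the invariant chain that guards the class II groove, was at 259.8, 259.7 and 319 CPM in olive oil, 215, 205, 295 and 254 in CCl4, 113, 165, 125 and 125 in EtOH and 560.2, 796 and 403 in CCl4+EtOH. The EtOH libraries lay below and the CCl4+EtOH libraries above all libraries of the other 2 groups. If log changes added, 114 CPM would be expected, and the interaction was 2.36 ± 0.29 (edgeR adjusted p = 0.00224).

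H2-Ab1, a class II beta chain, was at 81.7, 82.9 and 103 CPM in olive oil, 67.99, 61.04, 97.2 and 75.02 in CCl4, 41.8, 55.4, 45.2 and 47.1 in EtOH and 177, 213 and 123 in CCl4+EtOH. It had the same order, with an interaction of 2.09 ± 0.26 (edgeR adjusted p = 0.00228). H2-Eb1, another beta chain, had 2.19 ± 0.30, and the alpha chain H2-Aa 2.11 ± 0.33. The change with ethanol alone did not pass the test for Cd74, at -1.08 ± 0.20 (edgeR adjusted p = 0.0535), nor for H2-Ab1, at -0.91 ± 0.18 (edgeR adjusted p = 0.0627). Ciita, the master activator of class II genes, was above additivity at 1.78 ± 0.29, and the class I light chain B2m at 1.12 ± 0.20.

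Ubd, an interferon- and TNF-inducible ubiquitin-like modifier (FAT10), was the gene with the smallest p. It was at 1.47, 0.839 and 0.759 CPM in olive oil, 0.622, 0.691, 0.886 and 0.851 in CCl4, 0.149, 0.247, 0.245 and 0.1902 in EtOH and 18.04, 17.1 and 6.74 in CCl4+EtOH. All EtOH libraries lay below and all CCl4+EtOH libraries above the other groups, on 16 counts in the whole EtOH group. The interaction was 6.44 ± 0.55 (edgeR adjusted p = 0.000193). It was called with the adrenal level as a covariate, at 6.57 ± 0.90 (edgeR adjusted p = 0.0308), and not without EtOH replicates 1 to 3, at 6.55 ± 0.93 (edgeR adjusted p = 0.0847).

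The promoters of the class II genes are shown because this group moved together and its promoters are known to be read through an upstream box bound by NF-Y, whose core is CCAAT. The 200 bases before the annotated start come from RefSeq, build GRCm38.p6, at chr17:34305667-34305866 on the plus strand for H2-Eb1 and chr17:34287824-34288023 on the minus strand for H2-Aa. That of Mki67, at chr7:135716380-135716579 on the minus strand, stands for the cell cycle genes. Each is written 5′ to 3′ on the gene's strand, and capitals mark CCAAT or its reverse complement ATTGG.
H2-Eb1: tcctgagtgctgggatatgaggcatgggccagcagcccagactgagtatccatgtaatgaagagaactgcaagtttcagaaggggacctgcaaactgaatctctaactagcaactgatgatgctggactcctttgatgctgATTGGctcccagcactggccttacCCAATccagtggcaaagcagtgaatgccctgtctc
H2-Aa: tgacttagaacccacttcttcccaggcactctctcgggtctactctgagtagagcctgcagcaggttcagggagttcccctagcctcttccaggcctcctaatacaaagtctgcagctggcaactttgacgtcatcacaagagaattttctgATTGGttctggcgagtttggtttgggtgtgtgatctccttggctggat
Mki67: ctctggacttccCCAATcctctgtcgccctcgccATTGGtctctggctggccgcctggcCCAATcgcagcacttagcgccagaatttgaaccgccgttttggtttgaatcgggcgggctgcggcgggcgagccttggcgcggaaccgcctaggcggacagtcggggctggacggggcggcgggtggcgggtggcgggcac
The H2-Eb1 stretch holds 2 matches, that of H2-Aa 1 and that of Mki67 3. Windows of 300 bases (250 before to 50 after the start) were read on both strands. Promoters are counted here by gene: a gene with several windows counted once, if any of them held the motif, so more windows gave more chances. CCAAT occurred in 10 of 12 promoters found for the antigen presentation list (83.3%) and 23 of 25 found for the cell cycle list (92.0%). Among the 12379 promoters found for all genes tested it was in 42.4%. It was in 39.4% of those of genes above and 46.4% of those below additivity. The cell cycle element TTTGAA was in 13 of the 25 cell cycle promoters (52.0%), against 15.01% of all. The AP-1 sequence TGANTCA was in 10.9% of promoters above, 8.26% below and 6.83% of all. The TATA sequence TATAAA was in 8 of 19 promoters found for the NF-kB list described next (42.1%), against 9.90% of all, the interferon element ISRE in 5.58% above, 3.60% below and 3.85% of all, and the HNF4 sequence CAAAGTCCA in 0.587%, 1.48% and 0.630%. These are letter matches and no binding was measured.

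NF-kB and cytokine response genes followed, with 15 of 29 tested above additivity, 0 below and a median of 1.596. Nfkb2, the precursor of the NF-kB subunit p52, was at 25.5, 25.8 and 27.4 CPM in olive oil, 20.9, 22.7, 22.9 and 22.4 in CCl4, 20.97, 24.2, 19.5 and 24.6 in EtOH and 67.1, 67.2 and 37.5 in CCl4+EtOH. It did not overlap, and the interaction was 1.6 ± 0.23 (edgeR adjusted p = 0.00487). The chemokine Cxcl16 had 1.55 ± 0.25, the inhibitor Nfkbie 2.04 ± 0.36, and the bacterial sensors Tlr2 and Cd14 2.84 ± 0.51 and 2.81 ± 0.59. Tnf, the cytokine, did not pass, at 0.84 ± 0.82, and neither did Il1b, at 1.12 ± 0.71.

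Of 29 interferon-stimulated genes 8 were above additivity, and the median of the list was 1.03. The guanylate-binding protein Gbp2 was at 42.6, 53.8 and 15.97 CPM in CCl4+EtOH against 10.2 to 23.6 in the other libraries, and Gbp3 at 39.8, 43.02 and 10.8 against 7.65 to 13.5. In both genes CCl4+EtOH replicate 3 lay within the range of the other groups, while replicates 1 and 2 lay above it. Parp14, a mono-ADP-ribosyltransferase induced by interferon, had no overlap and an interaction of 1.38 ± 0.31.

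Complement and macrophage genes were above additivity together. Of 19 complement genes 9 were called above and 0 below, and of 22 macrophage markers 11 and 0, with medians of 0.96 and 1.37. C1qa, C1qb and C1qc, which encode the recognition molecule of the classical pathway, belong to both lists. C1qb was at 31.03, 25.00 and 28.8 CPM in olive oil, 19.1, 23.3, 44.4 and 28.1 in CCl4, 15.9, 29.3, 17.6 and 27.96 in EtOH and 90.7, 129.7 and 72.3 in CCl4+EtOH. The CCl4+EtOH libraries lay above all others, CCl4 replicate 3 came next, and the interaction was 2.08 ± 0.41 (edgeR adjusted p = 0.015). The chemokine receptor Cx3cr1, found on kidney macrophages, was at 2.97, 4.75, 3.92 and 6.66 CPM in EtOH and 40.01, 36.3 and 12.7 in CCl4+EtOH, where replicate 3 lay below CCl4 replicate 3 (2.72 ± 0.56).

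All 22 macrophage markers had a positive interaction. Their summed level was 342 to 485 CPM in olive oil, 307 to 809 in CCl4, 271.5 to 469.98 in EtOH and 937 to 1389 in CCl4+EtOH, with none at 0 in any library. In whole tissue, more cells of a type and more RNA per cell cannot be told apart, and the part of this level in the antigen presentation, NF-kB and complement results was not tested. Hpgds, a prostaglandin D synthase of immune cells, was at 10.01, 10.9 and 8.81 CPM in CCl4+EtOH against 1.71 to 3.603 elsewhere (2.16 ± 0.25), and the integrin Itgax at 23.8, 29.1 and 17.8 against 4.37 to 10.04 (1.82 ± 0.26). Hpgds and Dock10, a guanine nucleotide exchange factor of leukocytes (1.82 ± 0.23), remained called with the adrenal level as a covariate. Of 12 T and NK cell genes, 8 B cell genes and 10 neutrophil genes tested, 0 were called in edgeR, while 4, 0 and 2 had an unadjusted p under 0.05. The neutrophil list summed to 238 CPM in EtOH replicate 4 and to 5.55 to 53.3 CPM in the other libraries.

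Of 20 acute phase genes 3 were above additivity, against 5.49% of all genes tested. Cp, the copper-carrying ferroxidase ceruloplasmin, was at 179, 101 and 95.7 CPM in olive oil, 101, 101, 113 and 90.2 in CCl4, 194, 248, 222 and 246 in EtOH and 933, 1276 and 323 in CCl4+EtOH. The groups with ethanol were the higher ones, CCl4+EtOH lay above all others, and the interaction was 2.1969 ± 0.48 (edgeR adjusted p = 0.0199). The others were Serpina10, given above, and the protease inhibitor A2m (3.93 ± 1.12), which overlapped.

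Collagens and other matrix genes were above additivity in part. Of 30 genes of extracellular matrix and fibrosis, 12 were above additivity and 0 below, with a median of 1.11. Col4a1, a basement membrane collagen, was at 416, 411 and 315 CPM in olive oil, 294, 349, 303 and 370.0 in CCl4, 295, 308, 328 and 310.0 in EtOH and 923, 791 and 474 in CCl4+EtOH. The CCl4+EtOH libraries lay above all others, and the interaction was 1.44 ± 0.25 (edgeR adjusted p = 0.00979). The growth factors Pdgfb and Tgfb1 had 1.57 ± 0.28 and 1.36 ± 0.26. The fibrillar collagens Col1a1 (1.4014 ± 0.66) and Col3a1 (1.03 ± 0.71) did not pass the test.

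**Figure D3:**
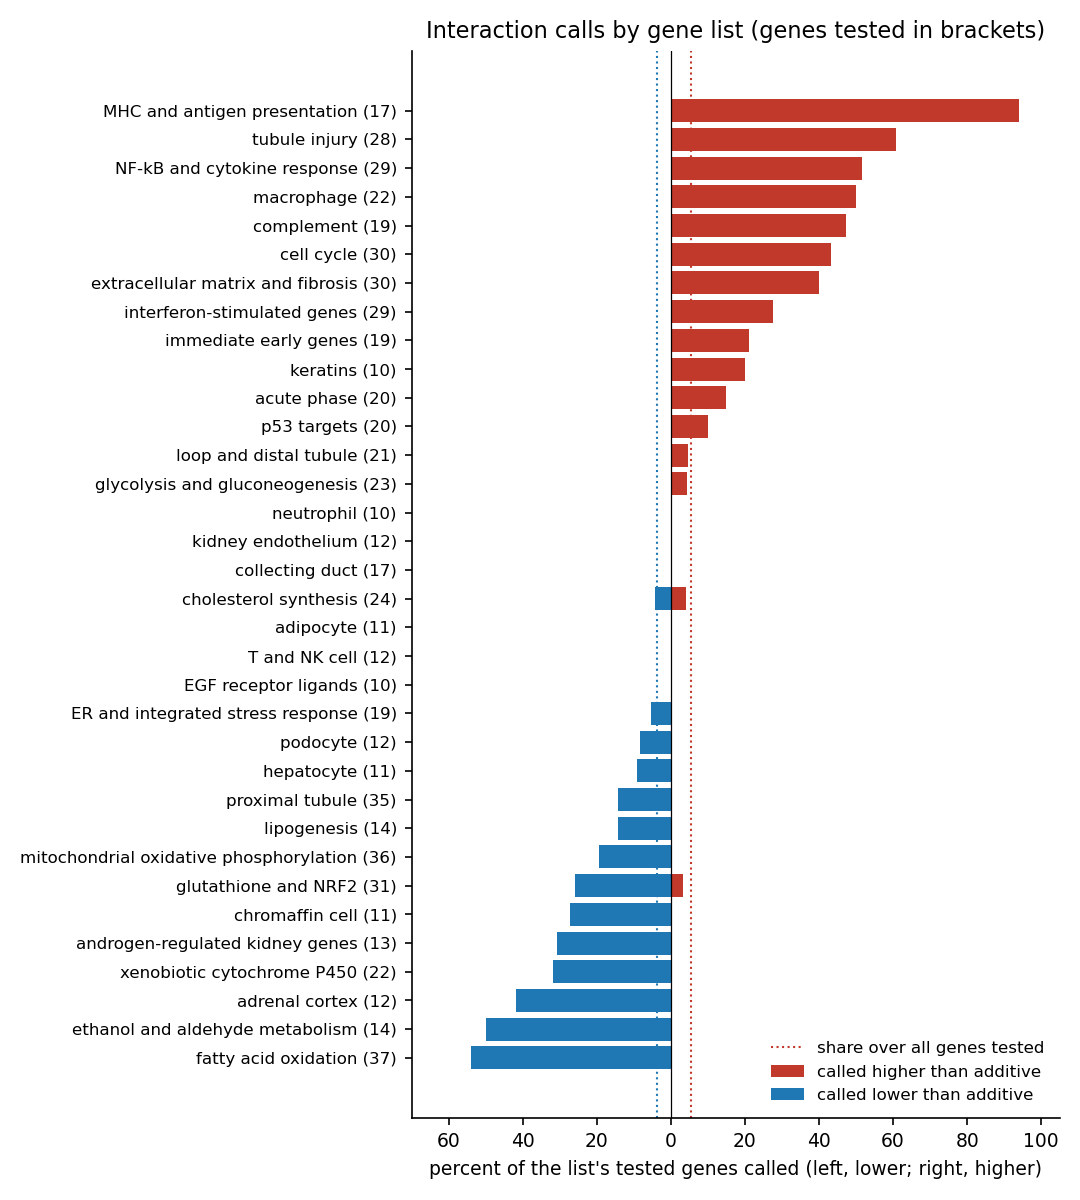
Share of the tested genes of each list (lists with 10 or more tested genes, numbers in brackets) called below additivity (blue, left) and above it (red, right). Dotted lines mark the shares over all genes tested, 3.63% and 5.49%. Antigen presentation reaches 16 of 17 genes on the right and fatty acid oxidation 20 of 37 on the left.

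Genes of fatty acid oxidation, the main fuel of the proximal tubule, were lower than additive. Of 37 fatty acid oxidation genes, 20 were below and 0 above, and the median was -1.05. Eci2, an enoyl-CoA isomerase, was at 151, 143 and 147 CPM in olive oil, 193, 165, 139 and 158 in CCl4, 147, 126, 152 and 140.4 in EtOH and 87.8, 88.1 and 101 in CCl4+EtOH. The CCl4+EtOH libraries lay below all others, and the interaction was -0.77 ± 0.15 (edgeR adjusted p = 0.013). Etfa, which passes electrons from the acyl-CoA dehydrogenases to the respiratory chain, was at 191, 198 and 309 CPM in CCl4+EtOH against 393 to 467 in the other libraries (-0.87 ± 0.20). Angptl4, a lipase inhibitor and a known PPARA target, was not called, at -0.81 ± 0.51 (edgeR adjusted p = 0.314).

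Of 36 genes of mitochondrial oxidative phosphorylation 7 were below additivity, 0 above, and no gene had a positive interaction, with a median of -0.50. Ndufb3, a subunit of complex I, was at 57.00 to 66.1 CPM in the other libraries and 41.7, 41.6 and 48.8 in CCl4+EtOH (-0.53 ± 0.10). The departures were small, as in the complex I subunits Ndufv1 (-0.62 ± 0.14) and Ndufa5 (-0.51 ± 0.12). Without CCl4+EtOH replicate 3, all 36 were called, in the fit that called 2377 above and 2504 below of 16398 genes.

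Some genes of ethanol metabolism and of the cytochromes P450, a family that oxidises foreign compounds, were lower than additive. Of 14 genes of ethanol and aldehyde metabolism 7 were below and 0 above, and of 22 xenobiotic cytochromes P450 7 and 0, with medians of -0.92 and -0.88. Cyp2e1 was at 1383, 1639 and 2677 CPM in olive oil, 1715, 1742, 1829 and 2124 in CCl4, 1165, 1240.3, 1176 and 1621 in EtOH and 382, 569 and 299 in CCl4+EtOH. The CCl4+EtOH libraries lay below all others, and the interaction was -1.61 ± 0.34 (edgeR adjusted p = 0.0181). The aldehyde dehydrogenases Aldh3a2 and Aldh7a1 had -0.83 ± 0.15 and -1.14 ± 0.24. Cyp2d9, Cyp2a4 and Cyp4b1 had -2.67 ± 0.55, -1.59 ± 0.36 and -1.62 ± 0.38, and Cyp2d9 and Cyp2a4 belong to families of near-identical genes whose reads may be shared.

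Of 31 genes of glutathione metabolism and the NRF2 response 8 were below additivity and 1 above. Below lay Sod1, the cytosolic superoxide dismutase (-0.82 ± 0.18), and the glutathione transferase Gsta3 (-1.11 ± 0.25). The exception was Slc7a11, the cystine importer, at 9.22, 7.63 and 5.48 CPM in CCl4+EtOH and 2.797 to 4.17 elsewhere (1.35 ± 0.29). Hmox1, the haem oxygenase often used as a sign of oxidative stress, was at 42.9, 46.6 and 34.2 CPM in olive oil, 34.4, 38.4, 44.2 and 47.9 in CCl4, 21.6, 52.7, 46.02 and 48.1 in EtOH and 48.6, 53.2 and 31.3 in CCl4+EtOH. The groups overlapped throughout, with an interaction of 0.08 ± 0.37 (edgeR adjusted p = 0.91).

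Several genes picked for the smallest p or the largest departure below additivity encode enzymes of amino acid and one-carbon metabolism, which were not tested as a list. Dmgdh, the dimethylglycine dehydrogenase, was at 198, 189.5 and 227 CPM in olive oil, 233, 193, 194 and 206 in CCl4, 209, 234, 233 and 211 in EtOH and 39.7, 37.4 and 73.7 in CCl4+EtOH. The 11 other libraries lay within a narrow band and the CCl4+EtOH libraries far under it, with an interaction of -2.16 ± 0.27 (edgeR adjusted p = 0.00224). Bhmt2, which remethylates homocysteine, had 40.05, 29.01 and 55.5 CPM against 139 to 193 (-1.86 ± 0.25). Cbs, which condenses homocysteine with serine, had 92.5, 68.2 and 74.1 against 171 to 316 (-1.1042 ± 0.17). Csad, of taurine synthesis, had -1.17 ± 0.17, Ido2, a tryptophan dioxygenase, -2.13 ± 0.28, and Hpd, of tyrosine breakdown, -3.2997 ± 0.67.

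A further pair picked by the same rule encode a brush border and a secreted enzyme. Treh, the brush border trehalase, was at 171, 159 and 191 CPM in olive oil, 159.7, 151, 135 and 178 in CCl4, 164, 170.3, 158 and 149 in EtOH and 50.7, 48.3 and 64.5 in CCl4+EtOH, without overlap. Its interaction was -1.4042 ± 0.16 (edgeR adjusted p = 0.00186). Dnase1, the secreted nuclease, varied more among the other libraries, from 580.0 to 1526 CPM, and was at 59.3, 52.6 and 112 in CCl4+EtOH. Here olive oil replicate 3 was the highest library, and the interaction was -3.34 ± 0.49 (edgeR adjusted p = 0.00585).

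Of 35 transporters and regulators of the proximal tubule 5 were below additivity and 0 above, with a median of -0.82. The urate transporter Slc22a12 was at 1961 to 2495 CPM in the other libraries and 635, 480.3 and 1327 in CCl4+EtOH (-1.43 ± 0.36), and the water channel Aqp1 at 876 to 1209.7 and 432, 498 and 718 (-0.82 ± 0.22). Slc16a9, a carnitine and monocarboxylate transporter, had -0.99 ± 0.20. The summed level of this list separated the CCl4+EtOH mice, at 18179 and 16377 CPM in replicates 1 and 2 and 35566 CPM in replicate 3, against 37071 to 42628 CPM elsewhere. Without replicate 3, 28 of the 35 were called, in the fit that called 2377 above and 2504 below of 16398 genes. No gene of this list was at 0. The part of the list's level in the results on fatty acid, drug and amino acid metabolism was not tested.

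Other segments gave few calls, but the loop and collecting duct lists also had lower summed levels in CCl4+EtOH replicates 1 and 2. The loop and distal tubule list summed to 7083, 8505 and 12254 CPM in CCl4+EtOH, against 12565 to 15266 CPM elsewhere. The collecting duct list summed to 899, 1022 and 1275 CPM, against 1149 to 1519 CPM. Sums of the podocyte and endothelial lists overlapped with those of the other libraries. Of 21 genes of the loop and distal tubule 1 was called, the calcium channel Trpv5, above additivity at 1.34 ± 0.28, while the list's median was -0.35. Of 17 collecting duct and 12 endothelial genes 0 were called in edgeR, with 5 and 2 at an unadjusted p under 0.05 and medians of -0.27 and -0.26, and of 12 podocyte genes 1, the cell cycle inhibitor Cdkn1c. Of 24 genes of cholesterol metabolism 1 was above additivity and 1 below, the latter being the isomerase Ebp (-0.81 ± 0.19). Of 14 lipogenesis genes 2 were below additivity, Me1 (-0.76 ± 0.22) and Dgat2 (-1.12 ± 0.33). Of 23 genes of glycolysis and gluconeogenesis 1 was above, Pfkp (1.13 ± 0.24). Over all genes tested 5.49% were above additivity and 3.63% below, so a single call in lists of these sizes is close to those shares.

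**Figure D4:**
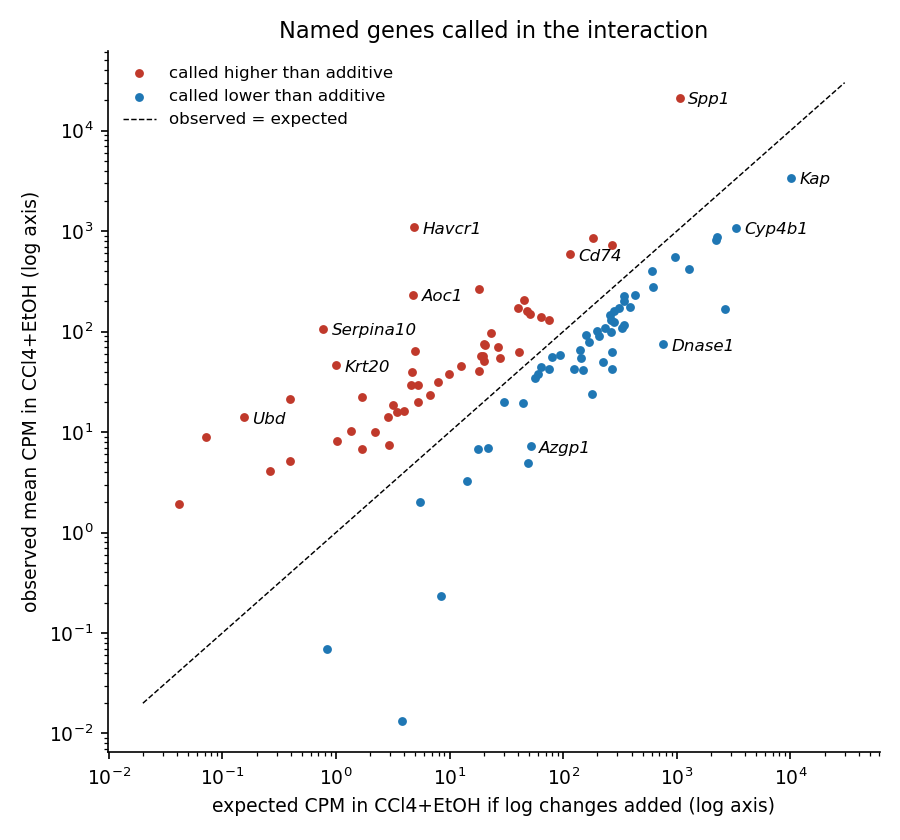
Mean CPM observed in CCl4+EtOH (y axis, log) against the level expected if log changes added (x axis, log) for the named genes called in the interaction, without those of the adrenal cortex and chromaffin cell lists. Havcr1 lies at 1086 CPM over an expected 4.84, Spp1 at 21065 over 1067, and Dnase1 at 74.5 under 756.

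Genes kept high in the male mouse kidney by androgen were lower than additive in part. Of 13 tested, 4 were below additivity and 0 above. Their median change was -1.05 with EtOH alone, -0.20 with CCl4 alone and -2.53 with both, each against olive oil, and the median interaction was -1.06. Kap, the kidney androgen-regulated protein, was at 26178, 25620.0 and 31039.6 CPM in olive oil, 21747, 20484, 29404 and 30439.8 in CCl4, 9515, 12842, 9217 and 11985 in EtOH and 4873, 1969 and 3269.7 in CCl4+EtOH. The groups without ethanol, EtOH and CCl4+EtOH did not overlap with one another, and the interaction was -1.58 ± 0.39 (edgeR adjusted p = 0.0259).

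Azgp1, a secreted zinc-binding glycoprotein, had the smallest p of the genes below additivity. It was at 89.8, 99.2 and 152 CPM in olive oil, 129.8, 99.4, 103 and 96.5 in CCl4, 54.9, 60.2, 50.3 and 54.8 in EtOH and 5.999, 7.06 and 8.59 in CCl4+EtOH. Its log2 change with ethanol alone was -1.05 ± 0.17 (edgeR adjusted p = 0.0213), and against CCl4 that of the combination was -3.89 ± 0.20 (edgeR adjusted p = 3.73e-07). The interaction was -2.85 ± 0.25 (edgeR adjusted p = 0.000209). It was called without EtOH replicates 1 to 3, at -2.86 ± 0.33 (edgeR adjusted p = 0.0261).

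Ethanol alone, against olive oil, changed 27 of 16105 genes (0.168%), 13 upward and 14 downward. In CCl4+EtOH against CCl4, which shares no library with that comparison, all 27 had the same sign, against 59.0% of 14985 genes with at least 1 CPM in a group. There 9 of the 13 and 12 of the 14 were called. That comparison called many genes, among them 857 of the 884 above and 532 of the 584 below additivity. Its share over all genes is not given here, so these counts cannot be judged against it. For the 13 that rose, the interaction was called in 4, all below additivity. For the 14 that fell it was called in 8, again all below. So among called genes the rise was smaller and the fall larger in CCl4+EtOH against CCl4. Called or not, 11 of the 13 lay nearer to 0 in that comparison and 12 of the 14 farther from it. The 27 genes were chosen by the change of EtOH against olive oil, which the interaction subtracts. Such a choice by itself draws genes that rose below additivity and genes that fell above it. For the genes that rose, a smaller rise therefore cannot be told apart from the way they were chosen.

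Mgst1, a microsomal glutathione transferase, was at 71.7, 76.9 and 64.98 CPM in olive oil, 99.7, 83.9, 88.01 and 68.3 in CCl4, 173, 233, 270.8 and 209 in EtOH and 98.5, 141 and 148 in CCl4+EtOH. CCl4+EtOH replicate 1 lay within the CCl4 group, and EtOH lay above all others. Mgst1 rose with ethanol alone by 1.64 ± 0.18 and in CCl4+EtOH against CCl4 by 0.6028 ± 0.17, a difference of -1.03 ± 0.24 (edgeR adjusted p = 0.0224). Ces2e, a carboxylesterase, was at 69.4, 64.2, 70.2 and 63.1 CPM in EtOH and 39.7, 39.8 and 35.1 in CCl4+EtOH, against 38.1, 45.01 and 42.3 in olive oil and 31.8, 34.9, 38.4 and 44.1 in CCl4 (-0.64 ± 0.15). Its level with both agents lay among those without ethanol.

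Gc, the vitamin D carrier, went the other way without passing the test. It was at 31.8, 40.1 and 31.7 CPM in olive oil, 61.6, 60.1, 36.5 and 35.6 in CCl4, 182, 151, 148 and 112 in EtOH and 579.8, 587 and 293 in CCl4+EtOH, and the 4 groups did not overlap except that olive oil and CCl4 did. The rise with ethanol was 2.1021 ± 0.28 without and 3.33 ± 0.27 with CCl4, and the interaction 1.22 ± 0.37 (edgeR adjusted p = 0.0545). Apoc3, an apolipoprotein (-0.24 ± 0.38, edgeR adjusted p = 0.714), and the sugar transporter Slc5a10 (-0.68 ± 0.28, edgeR adjusted p = 0.127) were not called either.

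Of the genes that fell, Inmt, a methyltransferase of small amines, was at 541, 759 and 818 CPM in olive oil, 828, 792, 756 and 743 in CCl4, 223, 355, 135 and 253 in EtOH and 62.7, 61.3 and 63.4 in CCl4+EtOH. Each group with ethanol lay below the groups without it, and CCl4+EtOH lay lowest, with an interaction of -2.09 ± 0.34 (edgeR adjusted p = 0.00791). It was called also without EtOH replicates 1 to 3, at -2.18 ± 0.24 (edgeR adjusted p = 0.0207), and not with the adrenal level as a covariate, at -2.25 ± 0.43 (edgeR adjusted p = 0.0916). Akr1d1, the bile acid and steroid 5-beta-reductase, had a log2 change of -1.46 ± 0.21 with ethanol alone and -3.13 ± 0.24 in CCl4+EtOH against CCl4 (-1.67 ± 0.32). The ketone body dehydrogenase Bdh1 and the peroxisomal oxidase Acox3 had interactions of -0.68 ± 0.17 and -0.82 ± 0.16. Slc22a7, an organic anion transporter, was not called, at -1.06 ± 0.54 (edgeR adjusted p = 0.215).

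**Figure D5:**
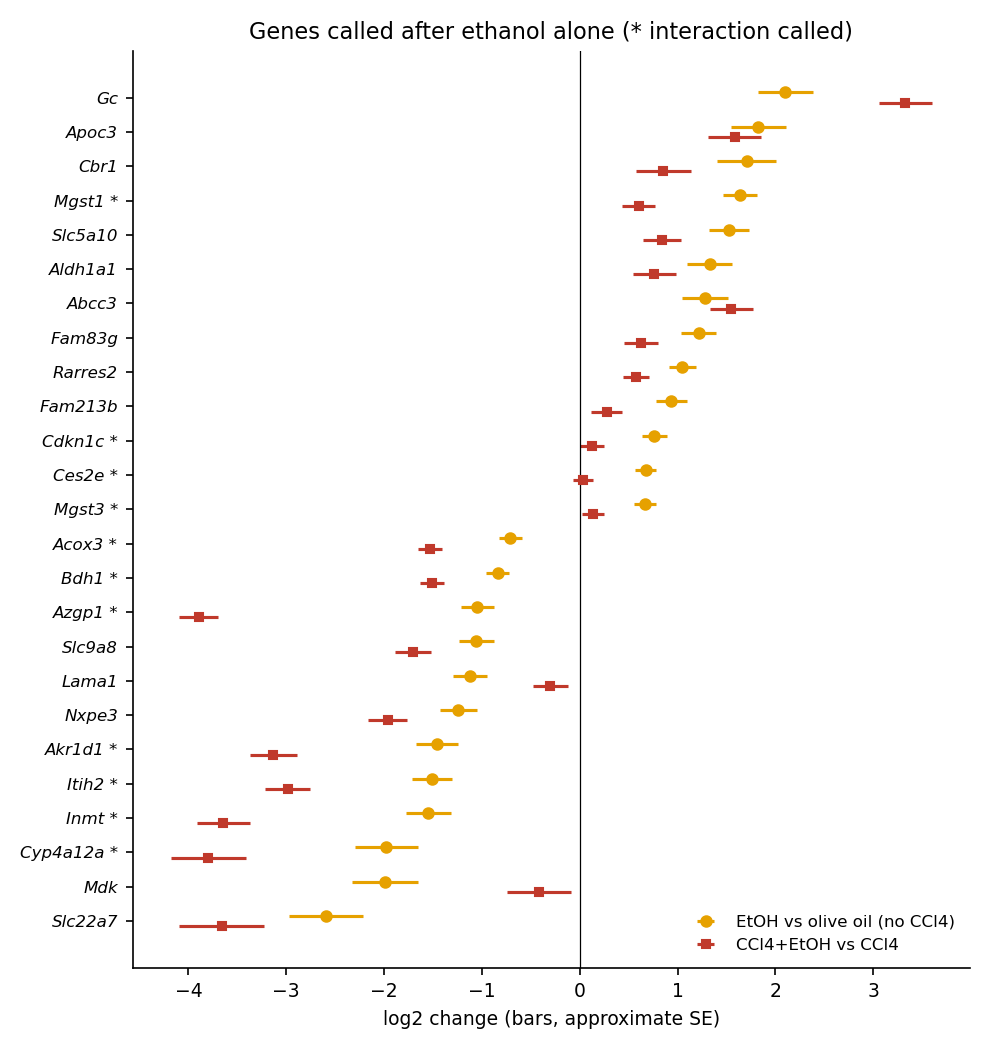
Log2 change with ethanol without CCl4 (orange circles, EtOH minus olive oil) and with CCl4 (red squares, CCl4+EtOH minus CCl4), with approximate SE, for the genes called in the former comparison. The 2 clone-named genes among the 27 are not drawn, and stars mark genes whose interaction was called. Over all 27, squares are nearer to 0 than circles for 11 of 13 genes that rose and farther from 0 for 12 of 14 that fell.

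Some calls below additivity were of genes high in EtOH replicates 1 to 3 alone. Of 12 adrenal cortex genes 5 were below additivity, of which Hsd3b1, Star, Cyp11a1 and Cyp21a1 were high in those libraries and Fdx1 was not. Of 11 genes of the chromaffin cell list 3 were below, of which the neuropeptide gene Npy was high there, at 11.4, 6.08, 11.6 and 1.902 CPM in EtOH, and Slc18a1 and Ddc were not. Without those libraries Slc18a1 and Ddc had interactions of -1.21 ± 0.36 and -1.26 ± 0.38, against -1.11 ± 0.28 and -1.11 ± 0.30 with them, and neither was called (edgeR adjusted p = 0.203 and 0.205). Hsd3b1, a steroid dehydrogenase, was at 139, 120.3, 244 and 2.09 CPM in EtOH and 0.278, 0.121 and 0.691 in CCl4+EtOH, and Star, which delivers cholesterol to steroid synthesis, at 199, 215, 267.9 and 6.47 and 4.45, 5.17 and 5.74. Dlk1, a protein of endocrine progenitors, was at 11.2, 5.98, 7.21 and 0.3804 CPM in EtOH, 0.117 to 0.434 in olive oil, 0.243 to 0.591 in CCl4 and 0.0795 to 0.323 in CCl4+EtOH. Its interaction went from -5.13 ± 1.31 to -1.14 ± 1.10 (edgeR adjusted p = 0.602) without the 3 libraries.

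Rab3c, a vesicle GTPase, was at 2.63, 1.68, 1.72 and 0 CPM in EtOH, 0 to 0.0587 in olive oil, 0.0591 to 0.122 in CCl4 and had 1 count in the CCl4+EtOH group. Fdx1, an electron carrier on the adrenal list that the kidney also expresses, was at 66.3, 77.6, 67.6 and 66.3 CPM in EtOH, 62.6 to 73.97 in olive oil and 36.99, 31.2 and 47.1 in CCl4+EtOH. EtOH replicate 4 lay with the other 3 EtOH libraries in this gene. Of 11 hepatocyte genes 1 was below additivity, the apolipoprotein Apob (-0.59 ± 0.18), against 3.63% of all genes tested. Of 4 skeletal muscle genes 0 were called in edgeR, with 1 at an unadjusted p under 0.05. Adipocyte genes, of which 0 of 11 were called in edgeR and 1 had an unadjusted p under 0.05, summed to 83.8 to 306 CPM in olive oil, 256 to 794 in CCl4, 260 to 965 in EtOH and 156 to 783 in CCl4+EtOH, and their part in the lipid results was not tested.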

How the data were processed

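Kidney RNA was sequenced, and the authors deposited 1 table of raw counts per gene (whole reads, not normalized) that holds several samples in columns. Alignment with GSNAP to mm9 is named in the submitters' processing notes, while the counter, annotation and strand setting were not given in the sources used here. Overlapping genes of opposite strand may therefore share reads. Of 23893 rows, 27 whose gene names a spreadsheet had turned into dates were left out (0.168 to 0.209% of a library's counts). Columns were matched to samples by the mouse number in the titles. The remaining olive oil sample was not analysed here. Replicates were not duplicates: the chi-square per gene between replicates was at least 9.79.

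Counts were filtered with filterByExpr, scaled by TMM and fitted over the 4 groups with edgeR 4.0.16 (robust quasi-likelihood F test, R 4.3.3), and p-values were adjusted by Benjamini and Hochberg over all 16105 genes at a threshold of 0.05. Standard errors are the log2 value divided by the square root of F and are approximate. CPM use the scaled library size. The level expected under log additivity is the product of the CCl4 and EtOH levels over the olive oil level. Library totals of 16.4 to 23.6 M counts set the precision of low genes.

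Alternatives were DESeq2 size factors, upper-quartile factors, the Wald test of DESeq2 1.42.0, and limma 3.58.1 (voom with quality weights). Further ones were other filters, the CCl4 mice of 1 schedule, a covariate split at title number 270, an adrenal covariate, and leaving out libraries. Leaving out CCl4+EtOH replicate 3 together with the adrenal-high EtOH libraries was chosen after seeing the data. On simulated counts with 200 of 15903 genes changed, the interaction test recovered 29.9% of 1.5-fold, 53.7% of 2-fold and 87.9% of 4-fold changes, and 5 of 119 calls were false. The simulation gave all groups the same spread in each gene. In the data, the chi-square per gene was 150 and 124 between CCl4+EtOH replicate 3 and its companions, against 9.79 to 26.7 for all other pairs. The simulated rates may therefore not hold for these libraries.

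The contrast and the gene lists were chosen with earlier results of these data known. Named genes are, per direction, the 15 with the smallest p and the 8 with the largest interaction among called genes, up to 3 called per list, up to 8 from each single-agent comparison, and Havcr1, Lcn2, Spp1, Krt20, Mki67, Kap, Cyp2e1, Hmox1 and Angptl4, with at least 1 CPM in the highest group and no clone names. The genes Sox9, Vcam1, Cd44, Clu, Klf4, H2-Aa, Ciita, B2m, Tlr2, Cd14, Tnf, Il1b, Tgfb1, Col1a1, Col3a1, Cyp11a1 and Cyp21a1 fall outside that rule and were chosen after their values were seen. Promoter sequences are from RefSeq (GRCm38.p6) and were matched by symbol for 12379 genes. The 6 motifs were searched on both strands, and overlaps between motifs were allowed. Some genes that the naming rule picks are not reported here.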

Additional observations from a re-analysis of the deposited data

Results flagged for a closer look

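In groups of 4 mice, 12 of 226 gene and group pairs examined held 1 library far from the other 3 by Dixon's criterion. That share is close to the one that chance gives, about 1 in 20. In the CCl4 group, replicate 3 had 131.8 CPM of H2-Eb1 (others 82.0 to 90.2) and 5.97 CPM of Hsd3b1 (others 1.13 to 1.88). Replicate 4 of that group had 16.3 CPM of Havcr1 (others 5.08 to 6.56), 467 CPM of Etfa (others 426 to 429) and 0.365 CPM of the RNA-binding Y-linked gene Rbmy (others at most 0.0591). Replicate 2 had 58.1 CPM of Fdx1 (others 61.6 to 62.1) and 153.4 CPM of Ddc (others 138 to 139.7).

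In the EtOH group, replicate 1 had 5.65 CPM of Ankrd6 (others 4.69 to 4.76) and 0.545 CPM of Foxm1 (others 0.932 to 0.951). Replicate 4, the library low in adrenal transcripts, had 33.7 CPM of Klf6 (others 45.3 to 46.3) and 1621 CPM of Cyp2e1 (others 1165 to 1240.3), and replicate 2 had 77.6 CPM of Fdx1 (others 66.3 to 67.6). The change with CCl4 differed with and without ethanol in 1468 genes by edgeR's test of the interaction.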

How the results depend on the processing

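Counts of genes above and below additivity were 884 and 584 as reported. They came to 1341 and 1178 with the DESeq2 Wald test (877 and 582 of the reported genes among them), and 2402 and 2408 with limma-voom (884 and 573 among them). With the CCl4 mice of the longer schedule alone there were 217 and 120, with those of the shorter schedule 643 and 341. With the adrenal covariate there were 3 and 3, without the EtOH libraries high in adrenal transcripts 0 and 3, and without these and CCl4+EtOH replicate 3, 1435 and 1723 (739 and 490 among them). Leaving out single libraries gave 197 to 2377 above and 95 to 2504 below, both highest without CCl4+EtOH replicate 3. Other scalings gave 857 and 618 or 1010 and 508, no filter 703 and 417, and a stricter filter 808 and 584. Mice carry individual numbers that do not pair the groups, and a covariate that split them at title number 270 gave 995 and 553. All olive oil mice used lay below that split and all CCl4+EtOH mice above it. Within the CCl4 group the split was the same as that between the schedules.

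None of the 108 named genes called changed direction in any fit. They were chosen in the full fit, with which every other fit shares libraries, so this was largely set in advance. Apoc3, not called at -0.24, was 0.18 with the longer schedule alone, 0.0094 without olive oil replicate 3 and 0.056 without CCl4 replicate 1, within a range of -0.47 to 0.056 over single libraries left out. Hmox1, not called at 0.08, was -0.083 with the longer schedule alone, -0.11 with the adrenal covariate and -0.13 without the adrenal-high EtOH libraries, and ranged from -0.14 to 0.27 over single libraries left out. The cause of these differences was not tested. Genes with few counts, such as Ubd (16 counts in EtOH) and Rab3c (1 count in CCl4+EtOH), have interactions of limited precision.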
